A study of Mus musculus with 2 samples.

Results

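Thymocyte-like cells with mitotic transcripts were selected among aortic leukocytes of ApoE-/- C57BL6/J mice, which lack apolipoprotein E and develop atherosclerosis. A cell was a member when it held at least 2 unique molecular identifiers (UMIs, each one counted RNA molecule) of Dntt, Rag1 and Arpp21 in sum and at least 3 of Top2a, Birc5, Ube2c, Nusap1, Mki67 and Cdc20 in sum. A member also held at most 2 UMIs of the B cell genes Cd79a, Cd79b and Ms4a1 in sum, at most 2 of the macrophage genes C1qa, C1qb and C1qc in sum, and at most 2 of the myeloid gene Lyz2. Cells entered with at least 200 detected genes and at most 10% mitochondrial UMIs. The rule found 189 members among 2957 kept cells, 104 of 2061 in the WD library and 85 of 896 in the chow diet library. Members were chosen by these counts, so values of the genes named here describe the choice and are not tested.

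Both groups were ApoE-/- mice on the C57BL6/J background, so the deletion is shared by WD and chow diet samples. The groups were mice fed WD and mice fed a chow diet, with aortas of 10 animals pooled into 1 library for each diet, and neither age nor feeding time is stated in the sources used here. Aortas were digested enzymatically, viable CD45+ cells were sorted, and up to 10000 cells per library were loaded for the 10x Genomics 3' v2 assay, which counts the 3' ends of transcripts. With 1 library of pooled animals per diet there was no biological replicate, so no p-value is given, and every interval (95%, exact) covers counting error only.

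Thymocytes are developing T cells. In the thymus, double-negative cells that pass the beta selection checkpoint, where a rearranged T cell receptor beta chain pairs with the pre-T alpha chain, divide rapidly, switch on Cd8 and then Cd4, and become small resting double-positive cells that rearrange the receptor alpha chain. Dntt encodes terminal deoxynucleotidyl transferase, which adds nucleotides at receptor gene joints, Rag1 a subunit of the recombinase that cuts them, and Arpp21 a phosphoprotein abundant in immature T cells. The mitotic genes of the rule act late in the cycle: Top2a untangles DNA, Birc5 (survivin) belongs to the chromosomal passenger complex, Nusap1 binds spindle microtubules, Mki67 coats mitotic chromosomes, and Cdc20 and Ube2c activate and serve the anaphase-promoting complex, the ubiquitin ligase that starts anaphase.

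The transcription of late cell cycle genes is known to be controlled by the DREAM and MuvB complexes, which bind the cell cycle genes homology region TTTGAA, and by NF-Y, which binds CCAAT boxes. To show these elements in the genes that chose the members, the 150 bases before the RefSeq start (GRCm38.p6) were searched on both strands for both motifs. On the opposite strand the homology region is spelled TTCAAA. The box bound by NF-Y is spelled there as ATTGG. No 2 matches overlapped in the promoters read. Top2a, Ube2c, Mki67 and Cdc20 held both motifs, while Birc5 and Nusap1 held neither. Of the 4 non-rule genes read as well, Ccnb1, Spc25 and Rrm2 held CCAAT and not TTTGAA, and Tk1 held neither. The regions are chr11:99024190-99024339 (minus strand) for Top2a, chr2:164769779-164769928 (plus strand) for Ube2c, chr7:135716380-135716529 (minus strand) for Mki67, chr4:118437344-118437493 (minus strand) for Cdc20 and chr13:100786487-100786636 (minus strand) for Ccnb1, the mitotic cyclin B1 shown as a gene the rule did not use. They are printed 5' to 3' on the gene's strand and end at the base before the start, with both motifs in capitals.
Top2a: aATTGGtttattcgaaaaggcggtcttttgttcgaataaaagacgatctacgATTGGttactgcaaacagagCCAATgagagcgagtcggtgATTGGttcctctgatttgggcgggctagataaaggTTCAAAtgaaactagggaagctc
Ube2c: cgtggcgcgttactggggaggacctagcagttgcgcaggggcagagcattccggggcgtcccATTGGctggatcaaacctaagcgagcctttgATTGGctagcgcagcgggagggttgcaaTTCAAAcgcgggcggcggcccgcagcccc
Mki67: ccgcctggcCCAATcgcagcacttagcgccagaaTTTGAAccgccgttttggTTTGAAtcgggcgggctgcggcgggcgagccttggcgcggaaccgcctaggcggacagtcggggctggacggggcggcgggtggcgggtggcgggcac
Cdc20: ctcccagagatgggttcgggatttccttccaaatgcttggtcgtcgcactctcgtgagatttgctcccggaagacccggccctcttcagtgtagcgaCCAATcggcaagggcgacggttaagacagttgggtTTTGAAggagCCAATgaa
Ccnb1: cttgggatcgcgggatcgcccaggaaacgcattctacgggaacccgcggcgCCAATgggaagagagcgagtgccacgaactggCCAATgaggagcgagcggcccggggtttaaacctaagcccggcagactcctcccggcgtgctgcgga

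TTTGAA stood in 9.24% of 27025 promoters of the same length (2498 genes), CCAAT in 25.3%, and both in 2.32%. Among genes for chromosome condensation and cohesion, TTTGAA was found in 9 of 14 promoters and CCAAT in 8 of 14. Cyclins and mitotic kinases held CCAAT in 14 of 16 promoters and TTTGAA in 3 of 16. In DNA replication genes TTTGAA stood in 3 of 32 promoters and CCAAT in 18 of 32. Promoters were read for 14 of 20, 16 of 21 and 32 of 41 genes of these lists. CCAAT was not particular to division genes: it stood in 14 of 17 sterol synthesis and uptake promoters and 7 of 10 of MHC class I. In T cell receptor signalling genes it stood in 1 of 13. These matches describe letters in a window and show no binding.

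The WD library held 2077 barcodes and 8782901 UMIs, and the chow diet library 909 barcodes and 4608033 UMIs; 16 and 13 barcodes were removed by the limits above. Members were deep cells, with a median of 6688.5 UMIs in WD (1578 to 25065) and 8063 in chow diet (1526 to 25141), and their pooled totals were 857639 UMIs in WD and 811964 in chow diet. Levels are given as CPM, the UMIs of a gene per 1000000 UMIs pooled over the cells of a class in a library. Non-cycling cells passing the same thymocyte and lineage limits (at most 2 mitotic UMIs and at most 2 UMIs of Pcna, Mcm5, Mcm6, Tyms, Rrm2 and Clspn in sum) numbered 101 in WD and 96 in chow diet, with medians of 1824 and 2033 UMIs. Of the barcodes, 3 occurred in both libraries and none of these was a member.

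Members made up a smaller share of WD cells than of chow diet cells. They were 5.05% of kept WD cells (interval 4.14 to 6.08) and 9.49% of kept chow diet cells (7.65 to 11.6), a ratio of 0.532 (0.396 to 0.717). All cells of the thymocyte-like gate, cycling or not, were 10.0% of kept cells in WD and 21.1% in chow diet, so the gate as a whole was also smaller in WD. Within that gate, members were 50.5% in WD (interval 43.5 to 57.5) and 45.0% in chow diet (37.7 to 52.4), and these intervals overlap. A lower share of kept cells cannot be told apart from a larger number of other leukocytes in the same library. Allowing no UMI at all of the excluded lineages left 66 WD and 41 chow diet members and a ratio of 0.6998, and applying the rule to cells thinned to 1000 UMIs left 39 WD and 42 chow diet members and a ratio of 0.404. Over all barcodes the median depth was 3177 UMIs in WD and 3722 in chow diet, and its part in the shares was not tested further.

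Every member held Dntt, at 1242 CPM in WD members and 1459 CPM in chow diet members. Rag1 or Arpp21 could also have met the rule, but Dntt had the highest level of these genes. Its presence in every member thus follows largely from the choice. Rag1 reached 134 CPM in WD members and 158 CPM in chow diet members and was seen in 58 of 104 WD and 55 of 85 chow diet members. Arpp21 reached 344 CPM in WD members and 383 CPM in chow diet members. Of the mitotic genes, Top2a had 974 CPM in WD members and 935 CPM in chow diet members, and Birc5 had 645 CPM in WD members and 752 CPM in chow diet members. Ube2c had 787 CPM in WD members and 1054 CPM in chow diet members. Mki67 had 335 CPM in WD members and 319 CPM in chow diet members, Nusap1 had 450.1 CPM in WD members and 485 CPM in chow diet members, and Cdc20 had 311 CPM in WD members and 468 CPM in chow diet members. These values chose the members and are given only to describe them. Over both libraries, 178 gate cells had no mitotic UMI, 24 had 1, 4 had 2, 7 had 3, 7 had 4 and 12 had 5. The limit of 3 was thus no sparser than the counts just above it. Cells with no mitotic UMI had a median of 1954.5 total UMIs and those with 3 a median of 5574, and the part of depth was not tested.

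The members carried the markers of thymocytes, and markers of other lineages at low levels. All 16 thymocyte markers were detected in members of both libraries, but Dntt, Rag1 and Arpp21 among them had chosen the members. The 16 markers, these included, summed to 8501 CPM in WD members and 9355 CPM in chow diet members (18 to 223 UMIs per member over both libraries). Cells with at least 5 UMIs of the B cell genes had 528 CPM in WD and 1009 CPM in chow diet. Non-cycling cells of the gate had more than members, 13650 CPM in WD and 15151 CPM in chow diet, so these markers were not particular to members. Early B lineage markers were near 0 (3 of the 9 genes were limited by the rule), with 17 UMIs in WD members and 19 in chow diet members. Pax5, Vpreb3 and Igll1 were at 0 in both. The 9 macrophage and monocyte markers, 4 of them limited by the rule, summed to 233 CPM in WD members and 279.6 in chow diet members, with Adgre1 at 0, against 35568 and 31416 CPM in cells with at least 5 C1q UMIs. At least 1 UMI of these markers was found in 85 of 104 WD and 77 of 85 chow diet members. Most were of Cst3, with 152 UMIs in 76 WD and 160 UMIs in 72 chow diet members. Lyz2 was found in 18 WD and 26 chow diet members. The 5 thymic epithelial markers had 15 UMIs in WD members and 10 in chow diet members: Epcam had 13 UMIs in 11 WD and 9 in 7 chow diet members, Krt8 had 2 and 1, and Krt5, Foxn1 and Psmb11 were at 0 in both. Ptprc, which encodes the CD45 used in the sort, was present at 189 CPM in WD members and 233 CPM in chow diet members.

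The members were not limited to mitosis. Most also held transcripts of S phase, the stage of DNA synthesis: the sum of Pcna, Mcm5, Mcm6, Tyms, Rrm2 and Clspn had a median of 19 UMIs in WD members and 22 in chow diet members, beside a median mitotic sum of 25.5 in WD (3 to 93) and 32 in chow diet (3 to 106). Because transcripts of both stages were found together, the cells are called here thymocyte-like cells with mitotic transcripts and not cells in mitosis. Gate cells with S-phase transcripts and fewer than 3 mitotic UMIs were rare, 1 in WD and 8 in chow diet, too few to describe.

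**Figure D1:**
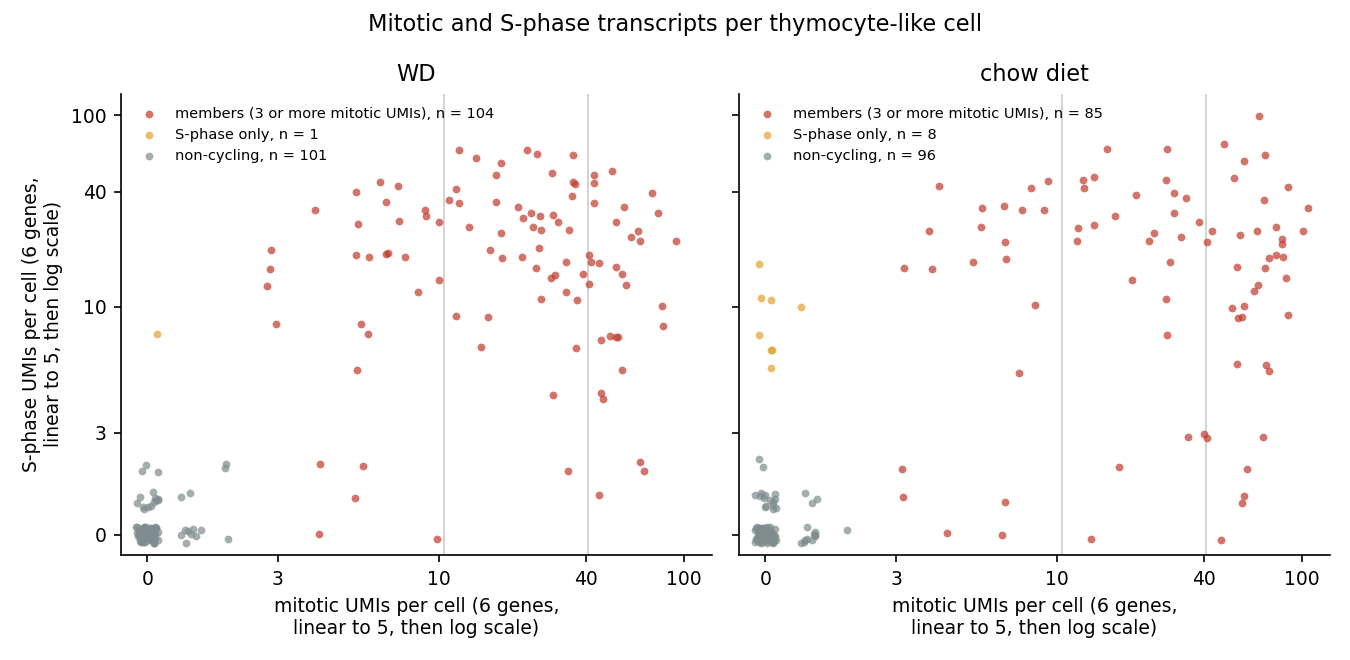
Mitotic UMIs (Top2a, Birc5, Ube2c, Nusap1, Mki67 and Cdc20 in sum, x axis) against S-phase UMIs (Pcna, Mcm5, Mcm6, Tyms, Rrm2 and Clspn in sum, y axis) in each cell of the thymocyte-like gate, WD left and chow diet right, on axes that are linear to 5 and logarithmic above, with small random shifts so that points do not hide each other; grey lines stand at 10 and 40 mitotic UMIs. Non-cycling cells lie near the origin, and most members hold both kinds of transcript.

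Members were divided by their mitotic UMIs into 3 ranges. The range of 3 to 10 held 29 WD and 21 chow diet members, that of 11 to 40 held 44 WD and 26 chow diet members, and that above 40 held 31 WD (29.8%, interval 21.2 to 39.6) and 38 chow diet members (44.7%, 33.9 to 55.9). Median total UMIs had no common order in the libraries, with the lowest in the middle range in WD and higher values at each step in chow diet: 7972, 6187.5 and 7024 in WD and 5897, 7729.5 and 9487.5 in chow diet. The ranges were cut on the rule's own mitotic UMIs, so levels of other mitotic genes across them describe that cut. The genes below were chosen after their values were seen. Genes of mitotic entry outside the rule were higher in the higher ranges. Ccnb1 (cyclin B1, the partner of Cdk1 at entry into mitosis) had 39.5, 132 and 436 CPM from the lowest to the highest range in WD and 12.1, 168 and 454 CPM in chow diet. Plk1, a mitotic kinase, had 8.78, 121 and 216 CPM in WD and 6.06, 86.1 and 186 CPM in chow diet. The spindle kinase Aurka had 13.2, 129 and 223 CPM in WD and 18.2, 107 and 243 CPM in chow diet. These genes were higher at each step in both libraries.

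Some replication genes were lowest in the highest range. Ung, a uracil glycosylase that is induced with DNA synthesis, had 263, 95.3 and 0 CPM in WD and 206, 94.3 and 9.92 CPM in chow diet over the same ranges. Mcm5 and Mcm6 are subunits of the replicative helicase. Mcm5 had 303, 350.4 and 154 CPM in WD and 321, 319.9 and 194 CPM in chow diet. Mcm6 had 434, 463 and 231 CPM in WD and 509, 381 and 223 CPM in chow diet. Rrm2, a subunit of ribonucleotide reductase, was highest in the middle range instead, with 588, 1239 and 813 CPM in WD and 581, 935 and 782 CPM in chow diet. Of members above 40 mitotic UMIs, 28 of 31 in WD and 34 of 38 in chow diet still held at least 3 S-phase UMIs.

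Transcripts of the coreceptors Cd8a and Cd4 were also higher at each step of the mitotic sum. Cd8a had 606, 1029 and 1483 CPM in WD and 763, 952 and 1536 CPM in chow diet. Cd4 had 57.0, 107 and 143 CPM in WD and 54.5, 103 and 201 CPM in chow diet. Cd8b1 was level over the lower ranges and higher above 40, with 974, 959 and 1696 CPM in WD and 1059.9, 980.3 and 1707 CPM in chow diet. Tcf7, a transcription factor of the T lineage, stayed near one level, with 1062, 1110.1 and 949 CPM in WD and 999, 1054 and 1039.5 CPM in chow diet. Ptcra, which encodes the pre-T alpha chain, showed no common order in the libraries, with 158, 123 and 121 CPM in WD and 66.6, 144 and 47.1 CPM in chow diet.

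**Figure D2:**
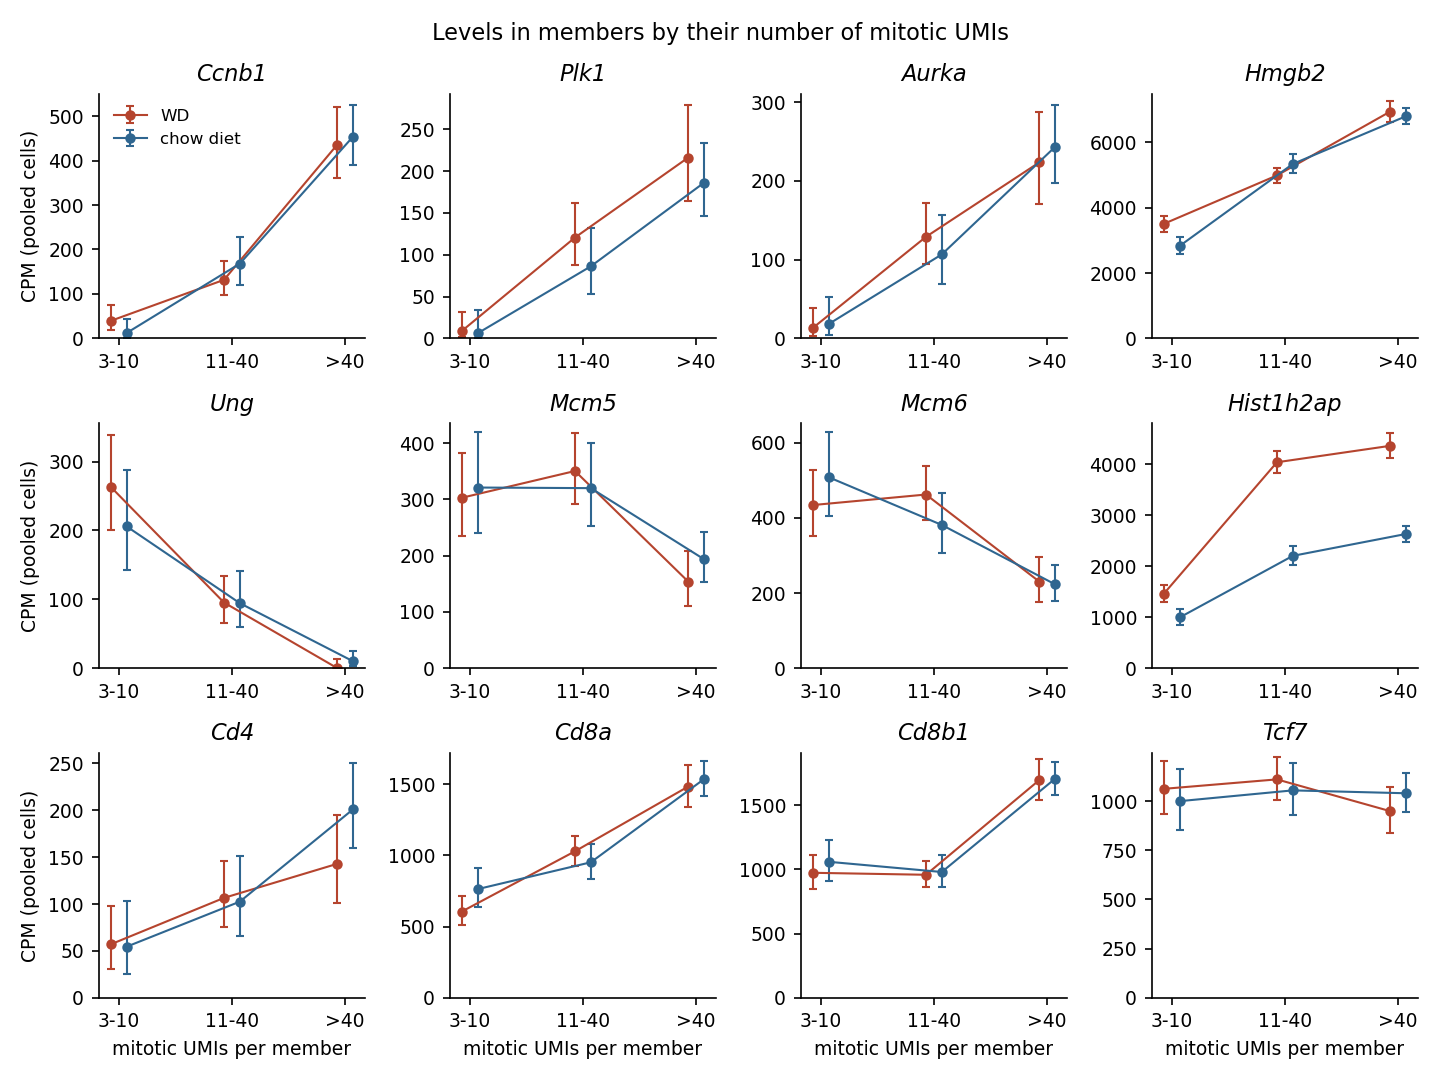
Level in members pooled by range of mitotic UMIs (x axis), in CPM with exact 95% Poisson intervals (y axis, from 0), for 12 genes outside the rule chosen after their values were seen; WD in red and chow diet in blue. Ccnb1, Plk1, Aurka, Hmgb2, Cd4 and Cd8a are higher at each step in both libraries, Ung is lower at each step, and Mcm5 and Mcm6 are lowest above 40 UMIs.

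With all UMIs counted, nearly all members held Cd8, and about as many held Cd4 with it as did not, a balance that changed with depth. A UMI of Cd8a or Cd8b1 was found in 94.2% (98 of 104 cells, interval 87.9 to 97.9) of WD members and 96.5% (82 of 85 cells, interval 90.0 to 99.3) of chow diet members. Both Cd4 and Cd8 were found in 47.1% (49 of 104 cells, interval 37.2 to 57.2) in WD and 55.3% (47 of 85 cells, interval 44.1 to 66.1) in chow diet, and Cd8 alone in 47.1% of WD and 41.2% of chow diet members. No member held UMIs of Cd4 without Cd8, 0 of 189 cells (exact upper bound 1.93%), which bounds cells with such UMIs and not cells that express Cd4 alone. As a measure of stray RNA, Cd8 was found in 10.00% of WD and 21.8% of chow diet cells with at least 5 B cell UMIs (median 2623 and 3228 UMIs), and Cd4 in 2.75% and 6.47%, far under the members' shares.

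After thinning to equal depth, the share of cells with both coreceptors was lower in members than in non-cycling cells of the gate. With all UMIs, both coreceptors were found in 47.1% of WD members and 47.5% of WD non-cycling cells, although members were more than 3 times as deep. After each cell was thinned to 1000 UMIs, which left out no cell, the shares were 10.6% (11 of 104 cells, interval 5.40 to 18.1) in WD members and 25.7% (26 of 101 cells, interval 17.6 to 35.4) in WD non-cycling cells. In chow diet they were 16.5% (14 of 85 cells, interval 9.31 to 26.1) in members and 32.3% (31 of 96 cells, interval 23.1 to 42.6) in non-cycling cells. Cd4 summed to 105 CPM in WD members and 142 CPM in chow diet members, against 260.0 and 444 CPM in WD and chow diet non-cycling cells, so the pooled level was lower in members as well. The thinned share of cells with any Cd4 was 0.588% in WD and 0.588% in chow diet cells with at least 5 B cell UMIs. Cd8 alone was found in 65.4% of WD and 63.5% of chow diet members after thinning. With all UMIs, both coreceptors were found above 40 mitotic UMIs in 54.8% of WD and 71.1% of chow diet members.

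**Figure D3:**
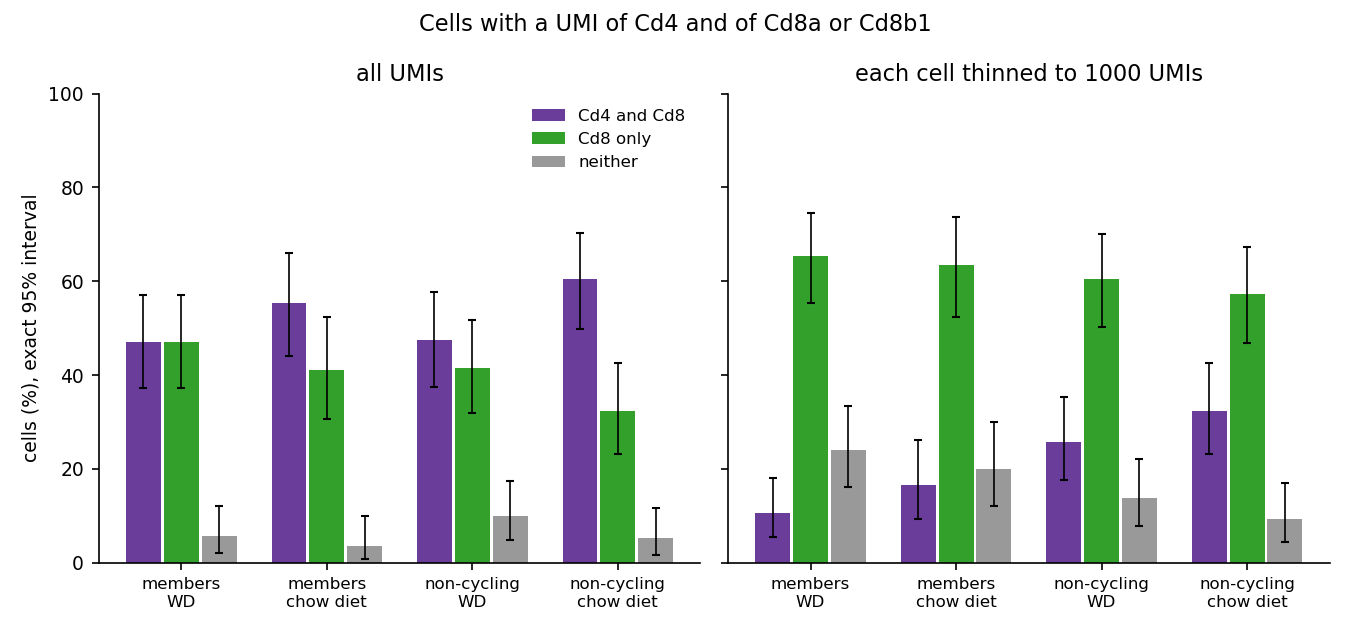
Percentage of cells (y axis, from 0, exact 95% binomial intervals) with a UMI of both Cd4 and Cd8a or Cd8b1, of Cd8 only, or of neither, in members and non-cycling cells of each library, with all UMIs on the left and after thinning to 1000 UMIs per cell on the right. After thinning, the share with both genes is lower in members than in non-cycling cells of the same library, and the intervals of the pair overlap at their ends.

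Against non-cycling cells of the same gate, members were higher in most genes of the mitotic and DNA replication lists, and in fewer genes of the anaphase-promoting complex and the histones. The cells were split by mitotic UMIs, and non-cycling cells were also chosen by few S-phase UMIs. The contrast is therefore a description of what came with that split. A gene was counted as higher or lower when its ratio reached 2-fold in both libraries. This limit was passed in both libraries by 10.8% of 8925 measured genes as higher and by 10.7% as lower in members, and the median log2 ratio over all measured genes was -0.06 in WD and -0.05 in chow diet. All 21 cyclins and mitotic kinases passed as higher, as did 22 of 23 kinetochore and centromere genes, 28 of 28 spindle genes and kinesins, 18 of 20 genes of chromosome condensation and cohesion, and 17 of 18 of cytokinesis. Of the rule's own genes, 1 counts among the spindle list, 2 among condensation and 1 among cytokinesis. With genes at 0 in one class set to the bound that a floor of 3 counts allows, the median log2 ratio was 3.72 in WD and 3.53 in chow diet for cyclins and kinases, and 3.42 in WD and 2.81 in chow diet for kinetochore genes. It was 3.17 in WD and 3.18 in chow diet for spindle genes. The lists were written with earlier results of these data known.

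The cyclins and mitotic kinases summed to 3418 CPM in WD members and 3919 CPM in chow diet members, against 109.8 and 153 CPM in non-cycling cells of WD and chow diet. Ccnb1 had 204 CPM in WD members and 278 CPM in chow diet members and no UMI in non-cycling cells of either library, so that members were at least 18.6-fold higher in WD and 23.01-fold higher in chow diet (against a floor of 3 counts per library). Cdk1, the kinase that cyclin B1 activates, had 253 CPM in WD members and 339 CPM in chow diet members, against 0 and 4.03 CPM in WD and chow diet non-cycling cells. Ccna2 (cyclin A2) had 329 CPM in WD members and 333 CPM in chow diet members, against 0 and 8.07 CPM in WD and chow diet non-cycling cells. Cks2, a small Cdk-binding subunit, had the most UMIs of this list, at 564 CPM in WD members and 716 CPM in chow diet members, against 21.97 and 24.2 CPM in WD and chow diet non-cycling cells.

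Among kinetochore genes, which tie chromosomes to the spindle, Spc25 of the Ndc80 complex had 227 CPM in WD members and 201 CPM in chow diet members and no UMI in non-cycling cells, so that members were at least 20.7-fold higher in WD and 16.6-fold higher in chow diet. Ndc80 itself and the cohesin protector Sgol1 were also at 0 in non-cycling cells. Members were at least 8.70-fold higher in WD and 7.02-fold higher in chow diet for Ndc80, and at least 10.7-fold higher in WD and 8.55-fold higher in chow diet for Sgol1. Cenpa, the histone of the centromere, had 379 CPM in WD members and 532 CPM in chow diet members, against 95.2 and 48.4 CPM in WD and chow diet non-cycling cells, ratios of 3.98 in WD and 10.99 in chow diet. Tuba1b and Stmn1 had the most UMIs of the spindle list. The tubulin Tuba1b had 3167 CPM in WD members and 3076 CPM in chow diet members, against 124 and 88.7 CPM in WD and chow diet non-cycling cells. Stmn1, which destabilises microtubules, had 3187 CPM in WD members and 3084 CPM in chow diet members, against 297 and 359 CPM in WD and chow diet non-cycling cells. The condensin subunit Ncapg was at 0 in non-cycling cells, so that members were at least 9.24-fold higher in WD and 7.84-fold higher in chow diet, while Smc4, a core subunit of condensin, differed less, with ratios of 2.13 in WD and 1.76 in chow diet. The chromatin protein Hmgb2 had 5218 CPM in WD members and 5556 CPM in chow diet members, against 337 and 229.9 CPM in WD and chow diet non-cycling cells. The histone variant H2afz had 4765 CPM in WD members and 4086 CPM in chow diet members, against 546 and 528 CPM in WD and chow diet non-cycling cells.

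Of the anaphase-promoting complex and its targets, 11 of 20 passed as higher and none as lower, or 9 of 18 without the rule's Cdc20 and Ube2c. The E2 enzyme Ube2s, which extends ubiquitin chains on the complex's targets, had 1634 CPM in WD members and 1705 CPM in chow diet members, against 322 and 266 CPM in WD and chow diet non-cycling cells. The inhibitor Fbxo5 (Emi1) had 255 CPM in WD members and 184 CPM in chow diet members, against 7.32 and 12.1 CPM in WD and chow diet non-cycling cells. The core subunit Anapc5 differed less, with ratios of 2.49 in WD and 2.03 in chow diet.

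Genes of DNA synthesis were higher too. Non-cycling cells had been chosen with at most 2 UMIs of Pcna, Mcm5, Mcm6, Tyms, Rrm2 and Clspn in sum. Values and ratios of these genes were therefore shaped by that choice. The counts and medians below are not given without them. Of DNA replication genes 38 of 41 passed as higher (median log2 ratio 3.45 in WD and 3.67 in chow diet), and of nucleotide synthesis genes 16 of 19 (median log2 ratio 2.76 in WD and 2.83 in chow diet). With genes at 0 in non-cycling cells set to their bound, these medians were 2.95 in WD and 2.90 in chow diet for replication and 2.76 in WD and 2.40 in chow diet for nucleotide synthesis. The sliding clamp Pcna had 661 CPM in WD members and 579 CPM in chow diet members, against 29.3 and 32.3 CPM in WD and chow diet non-cycling cells. Rrm2 had 930.5 CPM in WD members and 787 CPM in chow diet members, against 7.32 and 8.07 CPM in WD and chow diet non-cycling cells, a ratio of 127 in WD (interval 35.1 to 1051) and 97.6 in chow diet (26.9 to 807). Thymidine kinase Tk1 and the glycosylase Neil3 had no UMI in non-cycling cells. Members were at least 16.7-fold higher in WD and 12.2-fold higher in chow diet for Tk1, and at least 7.64-fold higher in WD and 7.53-fold higher in chow diet for Neil3. Ckap2l, a spindle protein, and Mxd3, a partner of Max, also stood among the 12 highest genes and had no UMI in non-cycling cells. Members were at least 8.70-fold higher in WD and 7.02-fold higher in chow diet for Ckap2l, and at least 7.32-fold higher in WD and 6.31-fold higher in chow diet for Mxd3.

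Replication-dependent histones differed among themselves, and their transcripts, which mostly lack a poly(A) tail, are captured only in part by an assay primed on poly(A). Of these genes 8 of 27 passed as higher and 1 as lower. Hist1h2ap had 3456 CPM in WD members and 2170.1 CPM in chow diet members, against 329.5 and 306 CPM in WD and chow diet non-cycling cells, while Hist1h1b, a linker histone, had 213 CPM in WD members and 240.2 CPM in chow diet members, against 117 and 121 CPM in WD and chow diet non-cycling cells. Histone genes share near-identical copies, so reads of one may be counted for another. Of G1 cyclins and kinases 5 of 10 passed as higher and 1 as lower: Cdk4 had ratios of 3.60 in WD and 3.14 in chow diet and Ccnd2 of 0.191 in WD and 0.258 in chow diet, whereas Ccnd3, the D cyclin of thymocyte expansion, differed little, at 909 CPM in WD members and 1003 CPM in chow diet members against 696 and 879 CPM in WD and chow diet non-cycling cells.

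Members were lower in most genes of cell cycle exit and of positive selection. Of cell cycle inhibitors and quiescence genes 11 of 17 passed as lower and 1 as higher (median log2 ratio -1.42 in WD and -1.42 in chow diet). Btg1, an antiproliferative gene, had 329 CPM in WD members and 324 CPM in chow diet members, against 1750.1 and 1391 CPM in WD and chow diet non-cycling cells. Klf2, a factor of T cell quiescence and egress, had 80.5 CPM in WD members and 134 CPM in chow diet members, against 391.8 and 496 CPM in WD and chow diet non-cycling cells. The exception was Cdkn2c, the Cdk4 and Cdk6 inhibitor p18, at 211 CPM in WD members and 198 CPM in chow diet members against 32.95 and 48.4 CPM in WD and chow diet non-cycling cells. Of positive selection and mature thymocyte genes 14 of 17 passed as lower and none as higher (median log2 ratio -2.69 in WD and -1.79 in chow diet). Cd69, a marker of recent receptor signalling, had 47.8 CPM in WD members and 20.9 CPM in chow diet members, against 154 and 198 CPM in WD and chow diet non-cycling cells. Cd5, which tunes receptor signals, had 17.5 CPM in WD members and 18.5 CPM in chow diet members, against 128 and 64.5 CPM in WD and chow diet non-cycling cells.

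Of T cell receptor signalling genes 6 of 19 passed as lower and none as higher (median log2 ratio -1.04 in WD and -0.82 in chow diet). Lck, the kinase that starts receptor signalling, had 978 CPM in WD members and 1029.6 CPM in chow diet members, against 1779 and 1787 CPM in WD and chow diet non-cycling cells. Cd3d, a subunit of the CD3 complex, had 653 CPM in WD members and 658 CPM in chow diet members, against 1508 and 1351 CPM in WD and chow diet non-cycling cells. Of double-positive thymocyte genes 9 of 26 passed as lower and 1 as higher, which was Mns1 at 267 CPM in WD members and 302 CPM in chow diet members against 76.9 and 117 CPM in WD and chow diet non-cycling cells. The chromatin organiser Satb1 had 807 CPM in WD members and 897 CPM in chow diet members, against 1395 and 1762 CPM in WD and chow diet non-cycling cells. Cd8b1 had 1197 CPM in WD members and 1357 CPM in chow diet members, against 2069 and 2525 CPM in WD and chow diet non-cycling cells, a ratio of 0.579 in WD (interval 0.522 to 0.643) and 0.538 in chow diet (0.487 to 0.594). Of early thymocyte genes 7 of 21 passed as lower and 2 as higher, and the Notch target Hes1 had 164 CPM in WD members and 129 CPM in chow diet members, against 773 and 742 CPM in WD and chow diet non-cycling cells.

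Immediate early genes and genes known to respond to tissue dissociation were lower as well, 11 of 15 past the limit. Junb had 177 CPM in WD members and 154 CPM in chow diet members, against 1494 and 1629 CPM in WD and chow diet non-cycling cells. The heat shock gene Hspa1a had 511 CPM in WD members and 408 CPM in chow diet members, against 1659 and 1553 CPM in WD and chow diet non-cycling cells. Of MHC class I genes, which present peptides to CD8 T cells, 5 of 11 passed as lower and none as higher: H2-K1 had 59.5 CPM in WD members and 82.5 CPM in chow diet members, against 469 and 343 CPM in WD and chow diet non-cycling cells. Scaling by the median of gene ratios instead of totals moved the median of all measured genes to 0.17 in WD and 0.19 in chow diet. Then 2 of 19 receptor signalling, 5 of 26 double-positive and 3 of 11 MHC class I genes passed as lower, while 7 of 17 inhibitors and 12 of 17 selection genes did. The share of all genes passing as lower under this scaling is not given here. The 10.7% given above belongs to the main scaling, so these counts are not read against it.

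Several of the 12 genes that stood lowest in members are known from other blood cells, and their UMIs came largely from few non-cycling cells. They were S100a4, Napsa, Cxcl16, Ctla2a, Rgs1, Bhlhe40, Insl5, Ctss, Ccl5, Cd74, H2-Eb1 and H2-Aa. Cd74, the invariant chain of MHC class II, had 75.8 CPM in WD members and 189.7 CPM in chow diet members, against 2545 and 2549 CPM in WD and chow diet non-cycling cells, but 434 of 695 UMIs in WD and 408 of 632 in chow diet non-cycling cells came from 1 cell. The chemokine Ccl5 had 23.3 CPM in WD members and 25.9 CPM in chow diet members, against 1725 and 379 CPM in WD and chow diet non-cycling cells, with 141 of 471 WD UMIs and 78 of 94 chow diet UMIs in 1 cell. Insl5, an insulin-like peptide, was spread instead, with 2 UMIs in WD members and 2 in chow diet members, against 14 UMIs in 13 WD and 13 UMIs in 11 chow diet non-cycling cells. The macrophage and monocyte markers summed to 1322 CPM in WD and 1178 CPM in chow diet non-cycling cells, above the members' levels. The 5 markers of mature T cells, all detected, summed to 109.6 CPM in WD members (0 to 8 UMIs per cell) and 175 CPM in chow diet members (0 to 12), against 2296 CPM in WD non-cycling cells (0 to 145) and 1266 CPM in chow diet non-cycling cells (0 to 152). Such cells were left out next, and their part in the lower selection, receptor and MHC class I values was not tested.

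When only the 78 WD and 79 chow diet non-cycling cells with Cd8 and with at most 2 UMIs of Cd74, H2-Aa, Ccl5 and S100a4 in sum were compared, a choice made after seeing the data, similar or larger counts of developmental genes passed. Among all 8612 genes measured in this comparison, 11% passed as lower and 12.4% as higher. Then 13 of 17 selection genes, 11 of 19 receptor signalling genes, 14 of 25 double-positive genes and 12 of 17 inhibitors passed as lower. Cd8 was required of the compared cells and not of members, so counts of T lineage genes were shaped by that choice. The direction turned for S100a4 (log2 ratio 1.12 in WD and 1.14 in chow diet) and Ctla2a (3.54 in WD and 2.54 in chow diet), in WD for Napsa (1.75), H2-Eb1 (0.37) and H2-Aa (0.85), and in chow diet for Cxcl16 (1.77) and Cd74 (0.10). Low UMIs of S100a4, H2-Aa and Cd74 chose the compared cells, so their turns follow from that choice. Fewer MHC class I and immediate early genes passed as lower, 1 of 11 and 4 of 15 in this comparison.

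Ribosomal and respiratory chain genes seldom passed the limit. Of cytosolic ribosomal protein genes 1 of 83 passed as higher (median log2 ratio 0.10 in WD and 0.09 in chow diet), and of nuclear genes of the respiratory chain 6 of 79 (median log2 ratio 0.56 in WD and 0.58 in chow diet). Of glycolysis genes 6 of 16 passed as higher and 1 as lower: Gapdh had 1903 CPM in WD members and 1813 CPM in chow diet members, against 751 and 706 CPM in WD and chow diet non-cycling cells. The lactate dehydrogenase Ldha had 881 CPM in WD members and 818 CPM in chow diet members, against 391.8 and 343 CPM in WD and chow diet non-cycling cells. Cycs, which encodes cytochrome c, had 452 CPM in WD members and 456 CPM in chow diet members, against 201 and 145 CPM in WD and chow diet non-cycling cells.

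**Figure D4:**
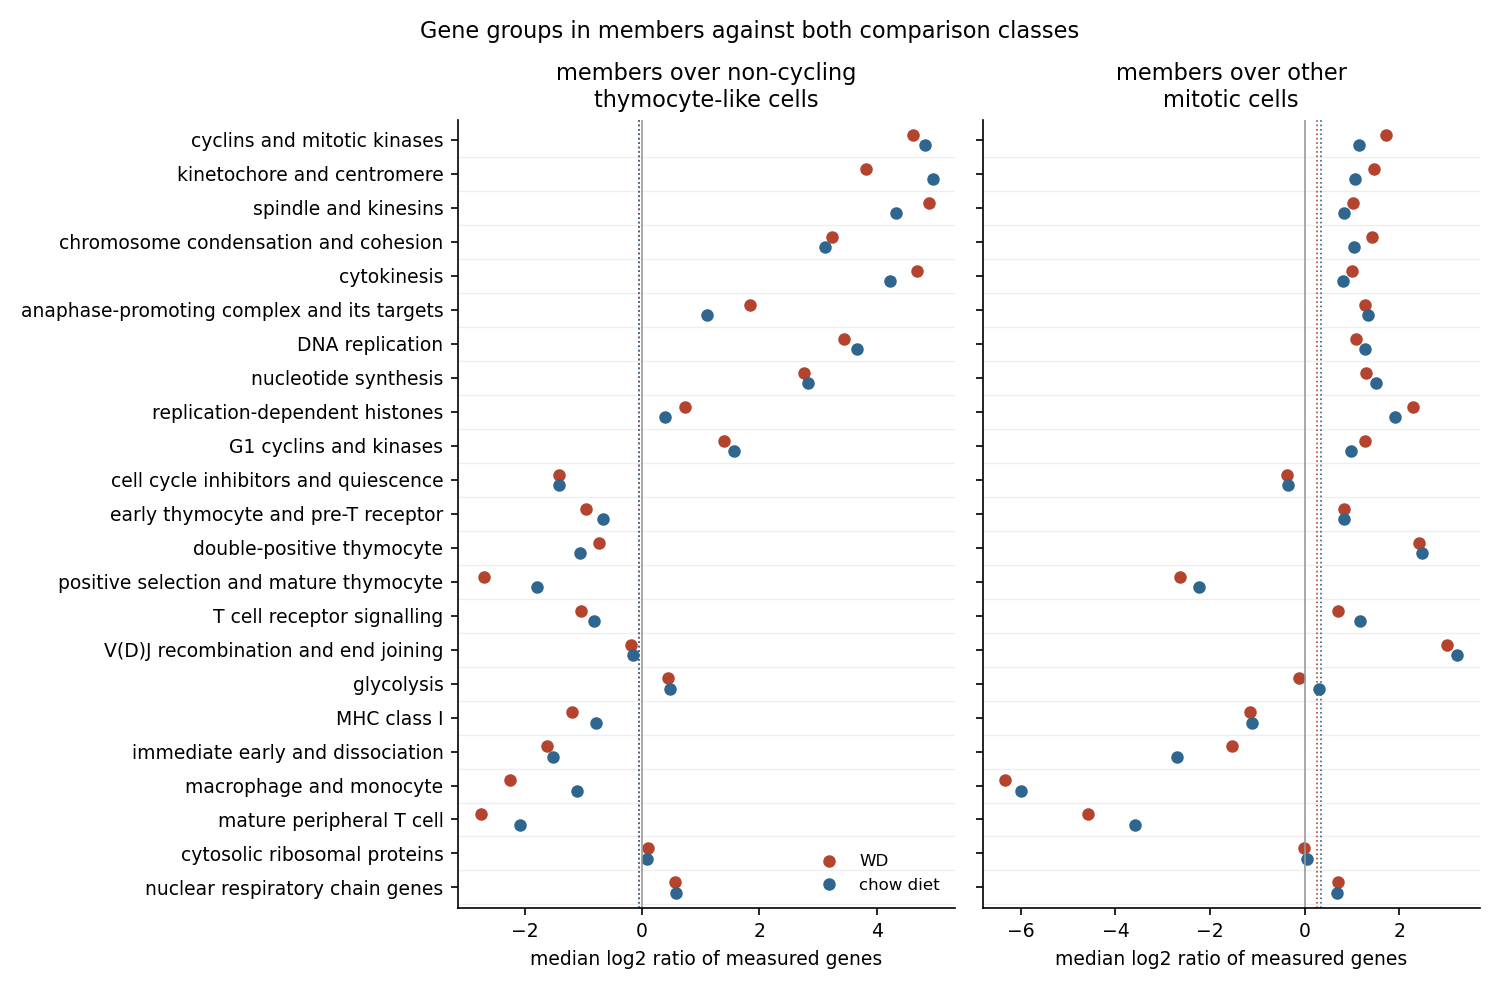
Median log2 ratio over the measured genes of each list (x axis; lists on the y axis) for members over non-cycling thymocyte-like cells (left) and members over other mitotic cells (right), in WD (red) and chow diet (blue); dotted lines mark the median of all measured genes and the grey line 0. Ratios of genes at 0 in one class are the fitted ones. Mitotic and replication lists lie above 0 on both sides, the double-positive list lies below 0 on the left and above it on the right, and the selection list lies below 0 on both. Lists that hold rule genes, or S-phase genes that limited the non-cycling cells, are included whole.

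Against other mitotic cells, members were higher in genes of double-positive thymocytes and also in many genes of division and replication, and lower in genes of mature T cells and myeloid cells. The other mitotic cells were 47 WD and 21 chow diet cells with at least 3 mitotic UMIs and at most 1 UMI of Dntt, Rag1 and Arpp21. They were a mixture: 22 in WD and 13 in chow diet held at least 2 Cd3 UMIs, 10 in WD and 3 in chow diet held over 2 B cell UMIs, 8 in WD and 3 in chow diet over 2 C1q UMIs, and 13 in WD and 11 in chow diet over 2 Lyz2 UMIs. At least 2-fold in both libraries, 13.8% of 9276 measured genes were higher and 12.2% lower in members, with medians over all measured genes of 0.26 in WD and 0.35 in chow diet. The rule fixed this contrast through Dntt, Rag1 and Arpp21, and its limits on B cell, C1q and Lyz2 UMIs held for members and not for the other mitotic cells, so lower values of B cell and myeloid genes describe the choice too.

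Of double-positive thymocyte genes 15 of 26 were higher and 1 lower (median log2 ratio 2.42 in WD and 2.49 in chow diet, and 2.42 in WD and 2.26 in chow diet with genes at 0 set to their bound). Endou, an endoribonuclease, had 494 CPM in WD members and 532 CPM in chow diet members, against 7.09 and 0 CPM in other mitotic cells of WD and chow diet. Arpp21 and the water channel Aqp11 had no UMI in other mitotic cells, and members were at least 28.0-fold higher in WD and 14.8-fold higher in chow diet for Aqp11. Dgkeos, Rapgef3, H2-Q2, Colq, Gm525 and Syt13 were also at 0 there, with bounds from 4.43-fold for Syt13 in chow diet to 30.8-fold for Dgkeos in WD. Tcf7 had 1046 CPM in WD members and 1036 CPM in chow diet members, against 49.6 and 69.5 CPM in other mitotic cells of WD and chow diet. Lck had 978 CPM in WD members and 1029.6 CPM in chow diet members, against 215 and 171 CPM in other mitotic cells of WD and chow diet. Of V(D)J recombination genes, 4 of 11 outside the rule were higher: the end joining factor Xrcc6 (Ku70) had 302 CPM in WD members and 317 CPM in chow diet members, against 14.2 and 37.1 CPM in other mitotic cells of WD and chow diet.

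Many division genes were also higher. Of these, 11 of 21 cyclins and mitotic kinases and 19 of 41 replication genes passed, beside a median of 25.5 mitotic UMIs in WD members and 32 in chow diet members and of 7 and 12 in other mitotic cells of WD and chow diet. Replication-dependent histones passed in 18 of 27, and Hist1h1b had 213 CPM in WD members and 240.2 CPM in chow diet members, against 30.7 and 46.3 CPM in other mitotic cells of WD and chow diet. Of positive selection and mature thymocyte genes 15 of 19 were lower, and of mature peripheral T cell genes 13 of 14. S100a4, a calcium-binding protein of effector and myeloid cells, had 1 UMI in WD members and 1 in chow diet members, against 169 and 122 UMIs in other mitotic cells of WD and chow diet. Ms4a6c, Cybb, Gzmk, Jchain and Maf had no UMI in any member, and Ckb, Trf, Fcer1g and Lyz2 completed the 10 lowest genes, and the place of Lyz2 was fixed by the rule's limit on it in members.

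The comparison depended on which cells were compared. Next, only the 18 WD and 6 chow diet other mitotic cells that held Cd3 and passed the lineage limits were kept. This choice was made after seeing the data, and it left 543 genes lower in members in place of 1131 (12.2% of 9276 measured). Fewer cells also change how many genes are measured, so these counts are not shares. The number of genes measured with the kept cells, and the median over all of them, are not given here. The receptor signalling list then had a median of -0.56 in WD and -0.23 in chow diet, in place of 0.72 in WD and 1.18 in chow diet, so that its direction turned. The direction also turned for Lyz2 in WD (1.42) and for Trf in chow diet (1.04).

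Between diets, members differed by less than 2-fold in most genes. Replication genes were slightly higher and spindle genes slightly lower in WD, beside a smaller share of WD members in the highest range of mitotic UMIs. Most genes of a sterol list were higher in WD members, but that list was written after such genes had been seen among the highest. Of 8125 measured genes, 2.6% were at least 2-fold higher and 4.84% at least 2-fold lower in WD members, and 43.9% were higher and 56.1% lower by any amount. The median log2 ratio over all of them was -0.07. In non-cycling cells 45.6% of measured genes were higher and 54.4% lower in WD by any amount, and in cells outside the gate 48.1% were higher and 51.9% lower. With 1 library per diet these ratios compare 2 libraries and have no replicate check.

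DNA replication genes were higher in WD members by any amount in 30 of 41 (median log2 ratio 0.17) and nucleotide synthesis genes in 15 of 19 (median log2 ratio 0.26), none of either list by 2-fold. Slbp, which binds histone mRNA, had 686 CPM in WD members and 555 CPM in chow diet members (log2 ratio 0.30, ratio 1.23, interval 1.09 to 1.40). Rrm2 had 930.5 CPM in WD members and 787 CPM in chow diet members (log2 ratio 0.24, ratio 1.18, interval 1.06 to 1.31). Spindle genes and kinesins were lower in 21 of 28 (median log2 ratio -0.28) and cyclins and mitotic kinases in 15 of 21 (median log2 ratio -0.21). In cells outside the gate spindle genes were lower in 25 of 29 (median log2 ratio -0.57), cyclins and kinases in 17 of 21 (-0.49), replication genes in 29 of 41 (-0.19) and nucleotide synthesis genes in 15 of 19 (-0.24). In members, Ccnb1 had 204 CPM in WD members and 278 CPM in chow diet members (log2 ratio -0.45, ratio 0.733, interval 0.598 to 0.897). Cenpa had 379 CPM in WD members and 532 CPM in chow diet members (log2 ratio -0.49, ratio 0.712, interval 0.615 to 0.824). Beside these values, 29.8% of WD members and 44.7% of chow diet members had more than 40 mitotic UMIs. Within members above 40 mitotic UMIs the medians were -0.04 for spindle genes and -0.06 for replication genes, and within the other members they were 0.15 for spindle genes and 0.10 for replication genes. These ranges were set by the rule's mitotic UMIs, which brings mitotic genes of the libraries closer by construction. For cyclins and mitotic kinases the median was -0.04 above 40 mitotic UMIs and 0.13 at or below 40.

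Histone genes ran both ways. Hist1h2ap was higher in WD, at 3456 CPM in WD members and 2170.1 CPM in chow diet members (log2 ratio 0.67, ratio 1.59, interval 1.501 to 1.69), and was higher in each range of mitotic UMIs, with 1457, 4039 and 4362 CPM in WD and 993, 2203 and 2632 CPM in chow diet. Of the 27 measured histones, 22 were lower in WD members, 3 of them by 2-fold, and Hist1h2ae had 97.9 CPM in WD members and 176 CPM in chow diet members (log2 ratio -0.84, ratio 0.556, interval 0.420 to 0.733). All 11 measured MHC class I genes were lower in WD members, none by 2-fold (median log2 ratio -0.31). H2-D1 had 209.9 CPM in WD members and 298 CPM in chow diet members (log2 ratio -0.50, ratio 0.704, interval 0.577 to 0.858). B2m, the shared light chain, had 749 CPM in WD members and 819 CPM in chow diet members (log2 ratio -0.13, ratio 0.914, interval 0.819 to 1.02). In non-cycling cells 8 of these 11 genes were higher in WD instead (median log2 ratio 0.34), a difference between the classes that was not tested. Cytosolic ribosomal protein genes were higher in WD in 74 of 83 by small amounts (median log2 ratio 0.11), and the nuclear genes of the respiratory chain had a median of 0.02.

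Thymocyte genes differed mostly by less than 2-fold. Of double-positive genes 16 of 25 were lower in WD members, none by 2-fold (median log2 ratio -0.08), and of receptor signalling genes 15 of 19 (median log2 ratio -0.14). Ccr9, the receptor for the thymic chemokine Ccl25, had 106 CPM in WD members and 196 CPM in chow diet members (log2 ratio -0.88, ratio 0.542, interval 0.414 to 0.705). Ptcra had 132 CPM in WD members and 80.1 CPM in chow diet members (log2 ratio 0.71, ratio 1.65, interval 1.20 to 2.27). Il2ra, the interleukin-2 receptor alpha chain that double-negative thymocytes carry before beta selection, had the lowest ratio of the genes named between diets, with 6 UMIs in 4 WD members and 28 UMIs in 6 chow diet members, up to 11 in 1 cell (log2 ratio -2.21, ratio 0.203, interval 0.0687 to 0.499). In cells outside the gate its log2 ratio was 0.13.

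Cyp51, Sqle and Mvd, enzymes of cholesterol synthesis, stood among the 10 genes highest in WD members. Cyp51 had 46.6 CPM in WD members and 16.01 CPM in chow diet members (log2 ratio 1.51, ratio 2.91, interval 1.53 to 5.94), from 25 of 104 WD and 12 of 85 chow diet members. Sqle had 44.3 CPM in WD members and 16.01 CPM in chow diet members (log2 ratio 1.43, ratio 2.77, interval 1.44 to 5.66), but after thinning to 1000 UMIs per cell its log2 ratio was -0.23. Members had median depths of 6688.5 UMIs in WD and 8063 in chow diet, so thinning left few UMIs of a gene at this level. Its thinned counts are not given here. Mvd had 30.3 CPM in WD members and 11.1 CPM in chow diet members (log2 ratio 1.40, ratio 2.74, interval 1.24 to 6.63). A list of 24 genes of sterol synthesis and uptake was written after these values had been seen. Of its 22 measured genes, 18 were higher in WD members, 7 of them by 2-fold (median log2 ratio 0.63). These counts are not given without Cyp51, Sqle and Mvd, so they describe the list and are no separate support. Hmgcs1, which makes the precursor of mevalonate, had 85.1 CPM in WD members and 36.9 CPM in chow diet members (log2 ratio 1.19, ratio 2.30, interval 1.49 to 3.65). Msmo1 had 44.3 CPM in WD members and 18.5 CPM in chow diet members (log2 ratio 1.24, ratio 2.40, interval 1.29 to 4.69). In cells outside the gate 5 of 24 were higher in WD (median log2 ratio -0.19), and in non-cycling cells 12 of 16 (0.26). Within members the median was 0.19 above 40 mitotic UMIs and 0.82 at or below 40.

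The other genes highest in WD members were Loxl2, Nit2, Ccdc137, Nop2, Caap1, Ccpg1 and Zmynd19, with log2 ratios from 1.38 to 2.31. Loxl2, a lysyl oxidase-like enzyme, had 44 UMIs in WD members and 8 in chow diet members, with 20 of the WD UMIs in 1 cell. After thinning, its log2 ratio was -0.95, and those of Ccdc137, Nop2 and Armc7 also turned, to -0.23, -2.45 and 2.21. The UMIs that thinning left of these genes are not given, so the turns are not read further. The other genes lowest in WD were AY036118, Rbm8a2, Cks1brt, Rpl13a-ps1, Gm10184, Cxcl2, Ndfip1, Armc7 and Gm10709. AY036118 had 33.8 CPM in WD members and 154 CPM in chow diet members, and its log2 ratio of -2.17 was matched by -2.09 in cells outside the gate. Rpl13a-ps1 and Gm10709 were lower in WD outside the gate too, at -1.22 and -1.41. Of the MHC class II genes, Cd74 had 75.8 CPM in WD members and 189.7 CPM in chow diet members (log2 ratio -1.32, ratio 0.3996, interval 0.294 to 0.537) with a log2 ratio of 0.09 outside the gate. The part of stray RNA from other cells in these counts was not tested.

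**Figure D5:**
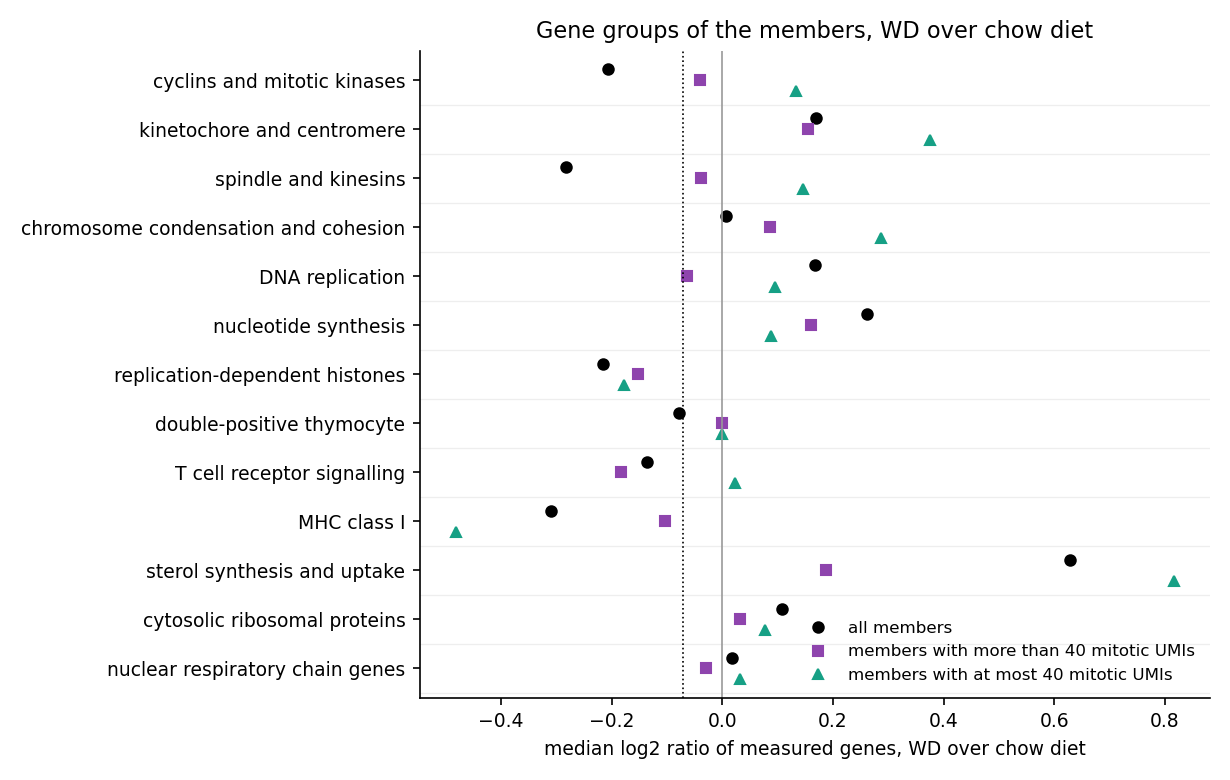
Median log2 ratio of WD over chow diet over the measured genes of each list (x axis; lists on the y axis) in all members (circles), in members with more than 40 mitotic UMIs (squares) and in members with at most 40 (triangles); the dotted line marks the median of all measured genes in all members. The spindle and cyclin lists lie below 0 in all members and at or above -0.04 within both ranges, and the sterol list, written after values were seen, lies above 0 in each.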

How the data were processed

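Per the labels' protocols, aortic CD45+ cells of ApoE-/- mice were sequenced with the 10x Genomics 3' v2 assay, and per the submitters' processing notes reads were handled with Cell Ranger and STAR on mm10, whose version numbers the sources used here do not give. The authors deposited unnormalized UMI counts per gene and barcode, 1 matrix per diet. Gene symbols were matched by ID for 27645 of 27998 genes. Members, lists and comparisons were chosen with earlier results of these data known.

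UMIs were summed over the cells of a class and library and scaled to CPM. Ratios carry exact conditional 95% intervals, shares Clopper-Pearson intervals and levels Poisson intervals, all for counting error only. Log2 ratios had 0.5 UMIs added, scaled by each total over the mean total. Genes with at least 10 UMIs over the libraries and classes compared were measured. Where a class had no UMI, a bound was set from a floor of 3 counts per library. A difference was counted when it reached 2-fold, and with 1 library per diet no test was made. The intervals' coverage was tested on simulated data.

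Named genes were the 10 highest and 10 lowest between diets (minimum 30 UMIs, interval without 1), the 12 highest and 12 lowest over non-cycling and the 10 over other mitotic cells by the log2 ratio nearer to 0, the rule's genes, and up to 8 genes with most UMIs of each list. Some genes that this rule names are not reported here. Genes shown across ranges of mitotic UMIs were chosen after their values were seen. Scrublet (in scanpy 1.11.5) called 2 WD cells and 3 chow diet cells, none a member. These shares, 0.0970% and 0.335%, lie under the expected 1.66% and 0.727%, so the caller found few doublets and it was used only as an alternative. Promoter sequences came from RefSeq (GRCm38.p6). Alternatives covered the rule's limits, scaling, filters, thinning to 1000 UMIs (seed 1) and the compared cells.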

Additional observations from a re-analysis of the deposited data

Results flagged for a closer look

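Of the named and listed genes, 5 differed between members and a compared class in opposite directions in the 2 libraries, with counting intervals that excluded a ratio of 1 in both. These differences between libraries were not tested, and each library is a single sample. Against non-cycling cells, Caap1 had a log2 ratio of 1.77 in WD and -1.64 in chow diet, and Ndfip1, an adaptor of Nedd4-family ubiquitin ligases, had -1.85 in WD and 1.98 in chow diet. Caap1 counts were 34 and 11 UMIs in WD and chow diet members and 3 and 11 in WD and chow diet non-cycling cells. Against other mitotic cells, Gata3, a T lineage transcription factor, had 1.51 in WD and -1.47 in chow diet. Btg2, an antiproliferative gene, had 0.44 in WD and -0.57 in chow diet. The granzyme gene Gzma had -0.69 in WD and 1.88 in chow diet. The other mitotic cells were 47 in WD and 21 in chow diet with the makeup given above.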

How the results depend on the processing

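Precision was limited by 104 and 85 members and by 1 library per diet. No paired analysis was possible because each diet has 1 library and the labels give no replicate numbers. The point value of the WD over chow diet ratio of the members' share lay between 0.404 and 0.6998 under all alternatives run, below 1 in each. An interval of this ratio was computed for the main rule only. With no UMI of excluded lineages, members were 3.20% of kept WD cells (interval 2.49 to 4.06) and 4.58% of kept chow diet cells (3.30 to 6.16). These 2 intervals overlap. Members were then 46.8% of WD gate cells and 36.6% of chow diet gate cells. When the rule was applied to thinned cells, members were 1.89% and 4.69% of kept WD and chow diet cells (28.9% and 30.4% of gate cells). Both coreceptors were found in 10.6% of WD and 16.5% of chow diet members after thinning and in 26.0% of WD and 34.1% of chow diet members at a minimum of 2 UMIs. Cd8 alone was found in 65.4% of WD and 63.5% of chow diet members after thinning, and in 68.3% of WD and 60.0% of chow diet members at 2 UMIs. Neither was found in 24.0% of WD and 20.0% of chow diet members after thinning. The gene counts that follow are not shares, because the number of measured genes changes with the filter and with the cells compared. A changed count is therefore not by itself a changed result. Genes at least 2-fold higher in WD members numbered 211 (2.6% of 8125 measured), against 38 at a minimum of 30 UMIs and 1257 at 1 UMI. With no UMI of excluded lineages they numbered 398. Genes lower in WD numbered 393, against 97 at 30 UMIs, 1755 at 1 UMI and 236 after thinning. Over non-cycling cells 965 genes were higher, 475 after thinning and 621 for members with at most 10 mitotic UMIs, and 954 were lower, 603 at 30 UMIs and 388 after thinning. Over other mitotic cells 1131 were lower, and 543 with Cd3-bearing cells only. Some log2 ratios changed sign. Those of S100a4, H2-Aa and Cd74 follow from the choice of compared cells, and the cause of the other changes was not tested. The ratio of S100a4 rests on 1 UMI in WD members and 1 in chow diet members. Between diets after thinning, the ratios that changed sign were Loxl2 (-0.95), Ccdc137 (-0.23), Nop2 (-2.45), Sqle (-0.23) and Armc7 (2.21), and Loxl2 above 40 mitotic UMIs (-3.23). UMI counts of these genes after thinning are not given. Against non-cycling cells with Cd8 and few Cd74, H2-Aa, Ccl5 and S100a4 UMIs the ratios that changed sign were, in WD, S100a4 (1.12), Napsa (1.75), Ctla2a (3.54), H2-Eb1 (0.37), H2-Aa (0.85) and the dendritic cell list (0.34), and, in chow diet, S100a4 (1.14), Cxcl16 (1.77), Ctla2a (2.54) and Cd74 (0.10). Against Cd3-bearing other mitotic cells they were Lyz2 (1.42), the receptor signalling list (-0.56) and the early B list (0.27) in WD, and Trf (1.04), the receptor signalling list (-0.23) and the early B list (3.40) in chow diet.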

Other observations

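Further groups of genes were read in members. Of p53 response genes, which follow DNA damage, 5 of 11 were at least 2-fold lower than in non-cycling cells and 1 was higher: Trp53inp1 had 52.5 CPM in WD members and 66.5 CPM in chow diet members, against 168 and 186 CPM in WD and chow diet non-cycling cells. Trp53 itself had 187 CPM in WD members and 153 CPM in chow diet members, against 103 and 157 CPM in WD and chow diet non-cycling cells. Among all measured genes 10.7% were lower and 10.8% higher. Of cell death regulators 3 of 15 were lower and 2 higher, near these shares. The proapoptotic Bcl2l11 (Bim) had 38.5 CPM in WD members and 43.1 CPM in chow diet members, against 146 and 125 CPM in WD and chow diet non-cycling cells. Bcl2l1, which encodes the survival factor Bcl-xL of double-positive cells, had 68.8 CPM in WD members and 99.8 CPM in chow diet members, against 73.2 and 157 CPM in WD and chow diet non-cycling cells. Cells that passed the thymocyte limit and were kept out of the gate by B cell, C1q or Lyz2 UMIs numbered 39 in WD and 18 in chow diet, and 11 and 6 of them held at least 3 mitotic UMIs.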
